A study of Mus musculus with 4 samples.

Results

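The genes described here are 43 effector genes that interferons switch on in mouse cells, known as interferon-stimulated genes. They were chosen by gene symbol, under a rule that leaves out interferon regulatory factors and nucleic acid sensors. Some members, among them Eif2ak2 and Dhx58, nevertheless sense foreign RNA or tune its sensing. All 43 were found among the 24346 gene symbols of the expression table. RNA-seq was performed on 4 samples of mBMSCs, primary bone marrow-derived mesenchymal stem/progenitor cells of wild-type C57BL/6 mice (C57BL/6J in the methods) aged 3 months, grown as adherent colonies from the femoral marrow. The samples formed 2 groups of 2, siScr (cells transfected with a scramble control siRNA) and siZBP1 (cells transfected with siRNA targeting ZBP1), both with Lipofectamine RNAiMAX and both collected 72 h later. All 4 samples shared the transfection itself, and no untransfected and no interferon-treated cells were among them. The sources used here do not name which siRNA against ZBP1 was used, and they do not say whether the replicates of a group came from separate cultures or mice, so p-values measure the spread between these samples only. The comparison addresses what depletion of ZBP1, a nucleic acid sensor that can associate with TBK1 and IRF3 and that is itself interferon-induced, did to the expression of these genes.

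Interferons act through cell surface receptors. Type I interferons bind IFNAR1 and IFNAR2, whose kinases JAK1 and TYK2 activate a complex with STAT2 and IRF9 that binds the interferon-stimulated response element (ISRE) in promoters. Interferon gamma binds IFNGR1 and IFNGR2 and acts through a different promoter element, the gamma-activated site (GAS). The products of the genes switched on in this way hold back viruses and other intracellular microbes by binding foreign RNA, blocking entry or release of viruses, tagging proteins with ISG15, or attacking the vacuoles around microbes.

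Promoter sequences from RefSeq on GRCm38.p6, from 250 bases before to 50 bases after each annotated start, were matched for 32 of the 43 members, and none was matched for Mx1, Mx2, Oas2, Usp18, Ifi27l2a, Iigp1, Parp9, Parp14, Rtp4, Dhx58 and Tor3a. The core of an ISRE, GAAA, any 2 bases and GAAA again, was searched on both strands and was present in 16 of the 32 (50%), against 3.99% of 27025 genes with such a promoter sequence. The letters TTCNNNGAA, the core of a GAS, read the same on both strands and were present in 8 of the 32 (25.0%), against 9.55% of the 27025 genes. In Bst2 and Ifitm3 a GAS match overlapped an ISRE match. The stretches below lie before the annotated start, are written along the strand of the gene, and carry the ISRE match in capitals. They are shown because genes with this element were found among members that fell, that rose and that did not pass. Ifit1, Igtp and Oas3 fell and Trim30a rose, whereas Isg15, Bst2 and Rsad2 did not pass the threshold, and Isg15 had the same log2 fold change as Oas3 (-0.38).
Ifit1, chr19:34640765-34640833, plus strand: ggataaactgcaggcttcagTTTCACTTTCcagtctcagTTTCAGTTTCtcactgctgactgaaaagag
Igtp, chr11:58199502-58199551, plus strand: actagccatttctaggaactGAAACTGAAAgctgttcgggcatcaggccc
Oas3, chr5:120777705-120777754, minus strand: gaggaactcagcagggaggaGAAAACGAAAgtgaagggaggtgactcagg
Trim30a, chr7:104465200-104465249, minus strand: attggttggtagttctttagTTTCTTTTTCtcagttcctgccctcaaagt
Isg15, chr4:156200855-156200916, minus strand: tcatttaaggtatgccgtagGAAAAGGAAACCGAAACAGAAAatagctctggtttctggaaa
Bst2, chr8:71537567-71537622, minus strand: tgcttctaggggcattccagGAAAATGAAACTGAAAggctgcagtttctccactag
Rsad2, chr12:26456543-26456592, minus strand: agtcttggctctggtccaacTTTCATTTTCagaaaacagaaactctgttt

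Expression was given as FPKM, the number of fragments scaled to transcript length and to the mapped reads of the sample, on which levels of different genes can be set side by side because it is per length. The sum of FPKM per sample ranged from 477974 to 492166. Numbers of reads were not given, and the ratios of the lowest values put the relative depth at 1.4 and 1.87 in the siScr replicates and at 1.0 and 1.61 in the siZBP1 replicates. Zbp1 itself, the target, was at 86.0 and 62.0 FPKM in the siScr replicates 1 and 2 and at 11.5 and 11.6 FPKM in the siZBP1 replicates 1 and 2, a 6.40-fold lower mean (limma log2 fold change -2.56, standard error 0.16, adjusted p = 0.00322). Without siZBP1 replicate 1 its adjusted p was 0.0618, and without siZBP1 replicate 2 it was 0.0510. The cells carried transcripts of a second cell type beside those of mesenchymal cells. The summed level of 12 macrophage markers was 6783 and 7724 FPKM in the siScr replicates and 11043 and 10401 FPKM in the siZBP1 replicates, while that of 11 mesenchymal stromal markers was 5611 and 4664 against 3315 and 3354 FPKM. Most of the lower stromal sum was Col1a1, at 3066 and 2520.1 FPKM in siScr cells and at 1128 and 1191 FPKM in siZBP1 cells. Of the 10 stromal markers tested 4 fell (40.0%, against 14.8% of all tested genes), 1 rose (10.0%, against 13.5%) and 5 did not pass. The largest fall was that of Cxcl12 (7.80-fold), and the gene that rose was Nt5e (5.12-fold). The stromal markers Col1a1 and Col1a2 were abundant, whereas Thy1 lay between 1.48 and 4.49 FPKM and Lepr between 0.414 and 1.28 FPKM. All 12 macrophage markers were higher in both siZBP1 samples than in both siScr samples (against 34.7% of all tested genes), 8 of them past the test (against 13.5% of all tested genes, and 0 without siZBP1 replicate 1 or without siZBP1 replicate 2), and none was lower. Markers of T, B and NK cells summed to at most 0.509 FPKM and those of endothelial cells to at most 2.70 FPKM. Neutrophil markers summed to at most 4.52 FPKM, with 3 of the 4 in the table listed at 0 in all samples. Of the plasmacytoid dendritic cell and of the erythroid and megakaryocyte markers a single gene each passed the filter, Tcf4 and Pf4, so their sums of 29.2 to 44.3 and 26.7 to 41.6 FPKM rest on genes that other cells also express. In such bulk samples fewer cells of a type and less RNA per cell cannot be told apart, and the part of the macrophage transcripts in the results on interferon-stimulated genes was not tested.

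Interferon-stimulated genes were well expressed in cells for which the labels name no interferon treatment. The median level of the 43 genes over the 4 samples was 42.2 FPKM, against 12.03 FPKM for the 11959 genes with a mean of at least 1 FPKM. All 43 passed this minimum, 38 of them lay above the median of the tested genes and 31 above the 75th percentile. Together they made up 0.959% and 0.895% of all FPKM in the siScr replicates and 0.897% and 0.902% in the siZBP1 replicates. Ifitm3, Lgals3bp and Bst2 alone held between 50.6% and 52.0% of that share. At the other end, the lowest means were those of Mx2 (6.21 FPKM) and Oasl1 (6.35 FPKM).

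**Figure D1:**
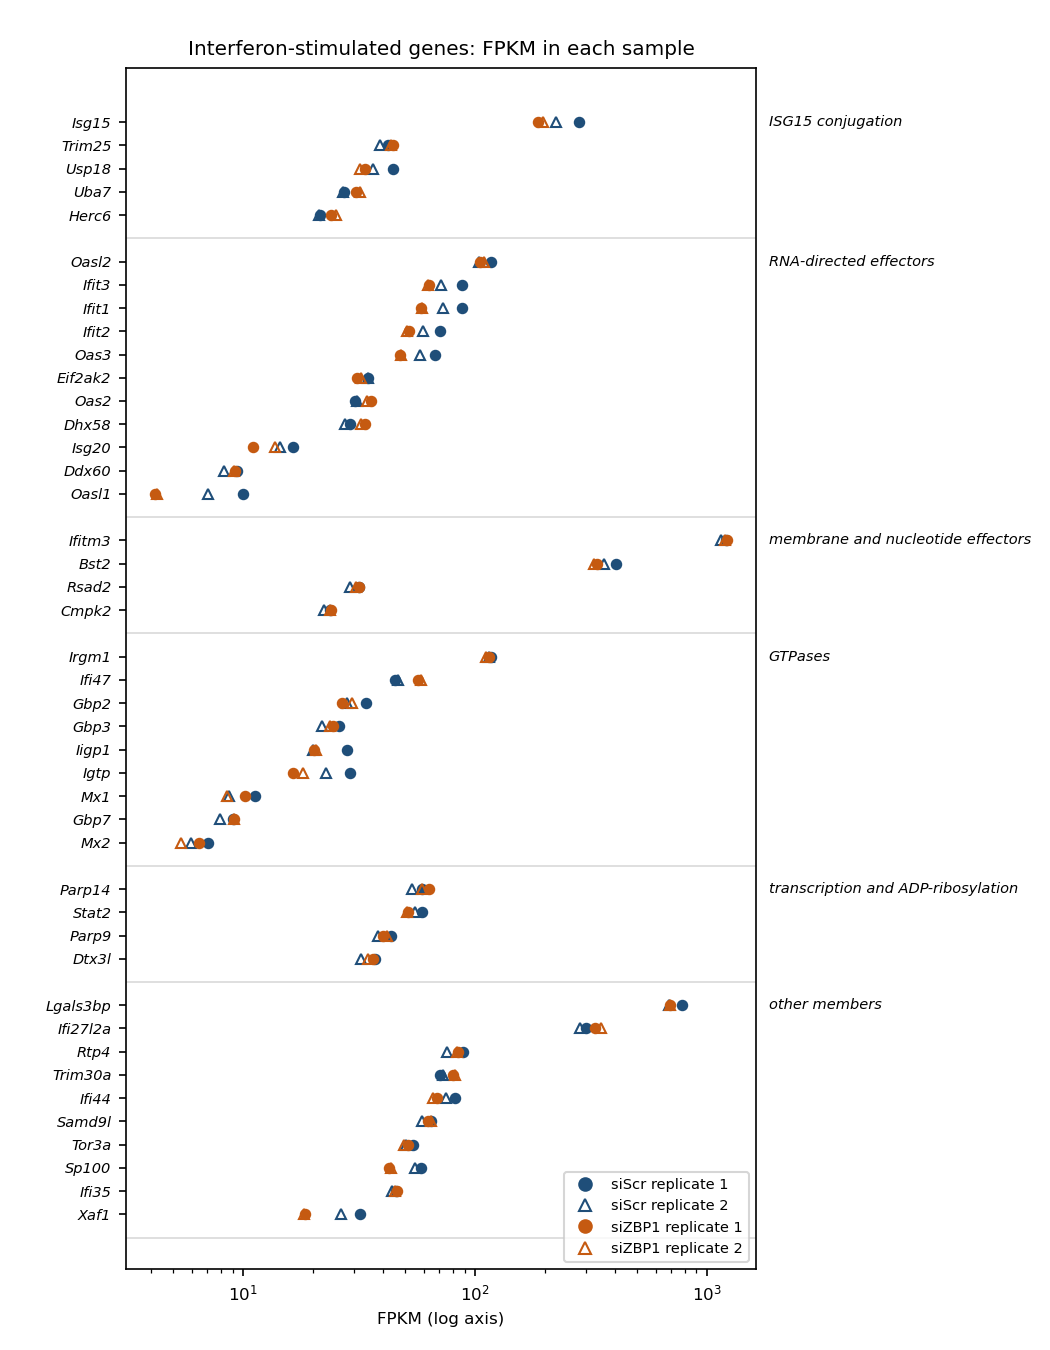
FPKM (log axis) of each of the 43 interferon-stimulated genes in the 2 siScr and the 2 siZBP1 samples, grouped by role and ordered by mean level within a group. Levels run from 6.21 FPKM (Mx2) to 1193 FPKM (Ifitm3) on average, and for most genes the 4 points lie close together compared with the distance between genes.

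The siScr replicates differed from each other in these genes. Of the 43 members, 40 (93%) were higher in siScr replicate 1 than in siScr replicate 2, against 55% of all tested genes. The median ratio of replicate 1 to replicate 2 was 1.13, and 10 members differed by over 1.2-fold (23.3%, against 17.6% of all tested genes). Oas2, Ifi47 and Trim30a were the 3 members that were higher in replicate 2. The siZBP1 replicates showed no such split, with 24 members higher in replicate 1 (55.8%, against 50.4% of all tested genes) and 19 in replicate 2. Between them 2 members differed by over 1.2-fold (4.65%, against 12.5% of all tested genes). Taken against siScr replicate 1 alone, 31 members had a lower mean in siZBP1 cells and 12 a higher one, and against siScr replicate 2 alone 18 had a lower mean and 25 a higher one. The number of members below the control thus depended on which siScr sample was used, and the counts of members that passed are given with and without each sample.

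**Figure D2:**
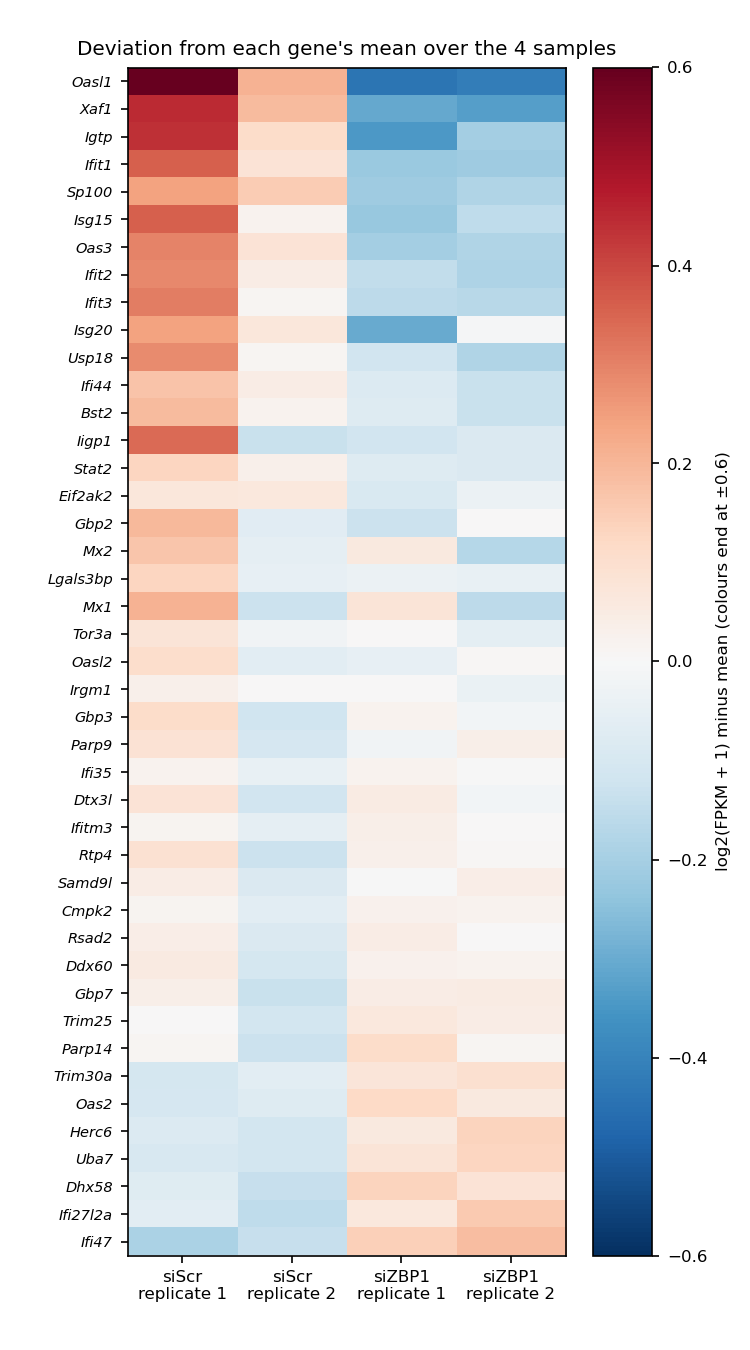
Deviation of log2(FPKM + 1) from the mean over the 4 samples for each gene (rows, ordered by log2 fold change) in each sample (columns), red above and blue below the mean. siScr replicate 1 is above siScr replicate 2 in 40 of the 43 rows, and the siZBP1 replicates resemble each other more closely.

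Depletion of ZBP1 did not move these genes in a single direction. By limma on log2(FPKM + 1), with p-values adjusted over all 11959 genes by the method of Benjamini and Hochberg at 0.05, 6 members fell (14%, against 14.8% of all tested genes) and 6 members rose (14%, against 13.5% of all tested genes). The shares in both directions were thus near those of all tested genes. Oasl1, Xaf1, Igtp, Ifit1, Sp100 and Oas3 fell, and Ifi47, Ifi27l2a, Dhx58, Uba7, Oas2 and Trim30a rose. The remaining 31 did not pass. Of the 43, 21 had an unadjusted limma p under 0.05, as did 42% of all tested genes. Of these 21, 14 were lower and 7 higher. Both siZBP1 samples lay below both siScr samples in 15 members (against 33.7% of all tested genes) and above both in 10 members (against 34.7% of all tested genes), and the groups overlapped in 18. By ratio of the means, Oasl1, Xaf1 and Igtp, or 3 members, were over 1.5-fold lower (against 9.19% of all tested genes), and 0 were over 1.5-fold higher (against 4.51% of all tested genes). The median log2 fold change was -0.04, against 0.004 for all tested genes, and the values ran from -0.85 to 0.33, with 23 below and 20 above 0.

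These counts rested on all 4 samples being present. Without siScr replicate 1, 5 members passed as lower and 1 as higher, beside 7.89% and 5.99% of all genes tested in that fit. Without siScr replicate 2 the counts were 14 and 1, beside 12.3% and 10.5% of all genes tested. The 8 members that passed there and not in the fit of all samples were Isg15, Usp18, Ifit2, Ifit3, Bst2, Iigp1, Ifi44 and Lgals3bp, all lower, and their calls rest on siScr replicate 1 as the sole control. With either siZBP1 sample left out, a single siZBP1 sample remained. Calls by limma were then lost among nearly all tested genes as among the members, so this loss was not particular to the members. The median log2 fold change of the members became -0.06 after removal of siZBP1 replicate 1 and -0.01 after removal of siZBP1 replicate 2. The median log2 fold change of the members was 0.04 when siScr replicate 1 was left out and -0.11 when siScr replicate 2 was. Oasl1, Xaf1 and Sp100 fell and Ifi47 rose under each of 7 other settings that kept all samples, and without a variance trend in limma they were the only 4 members to pass. An exact permutation test of 2 samples against 2 has 0.333 as its smallest two-sided p, and each adjusted p rests on the variance limma shares between genes.

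**Figure D3:**
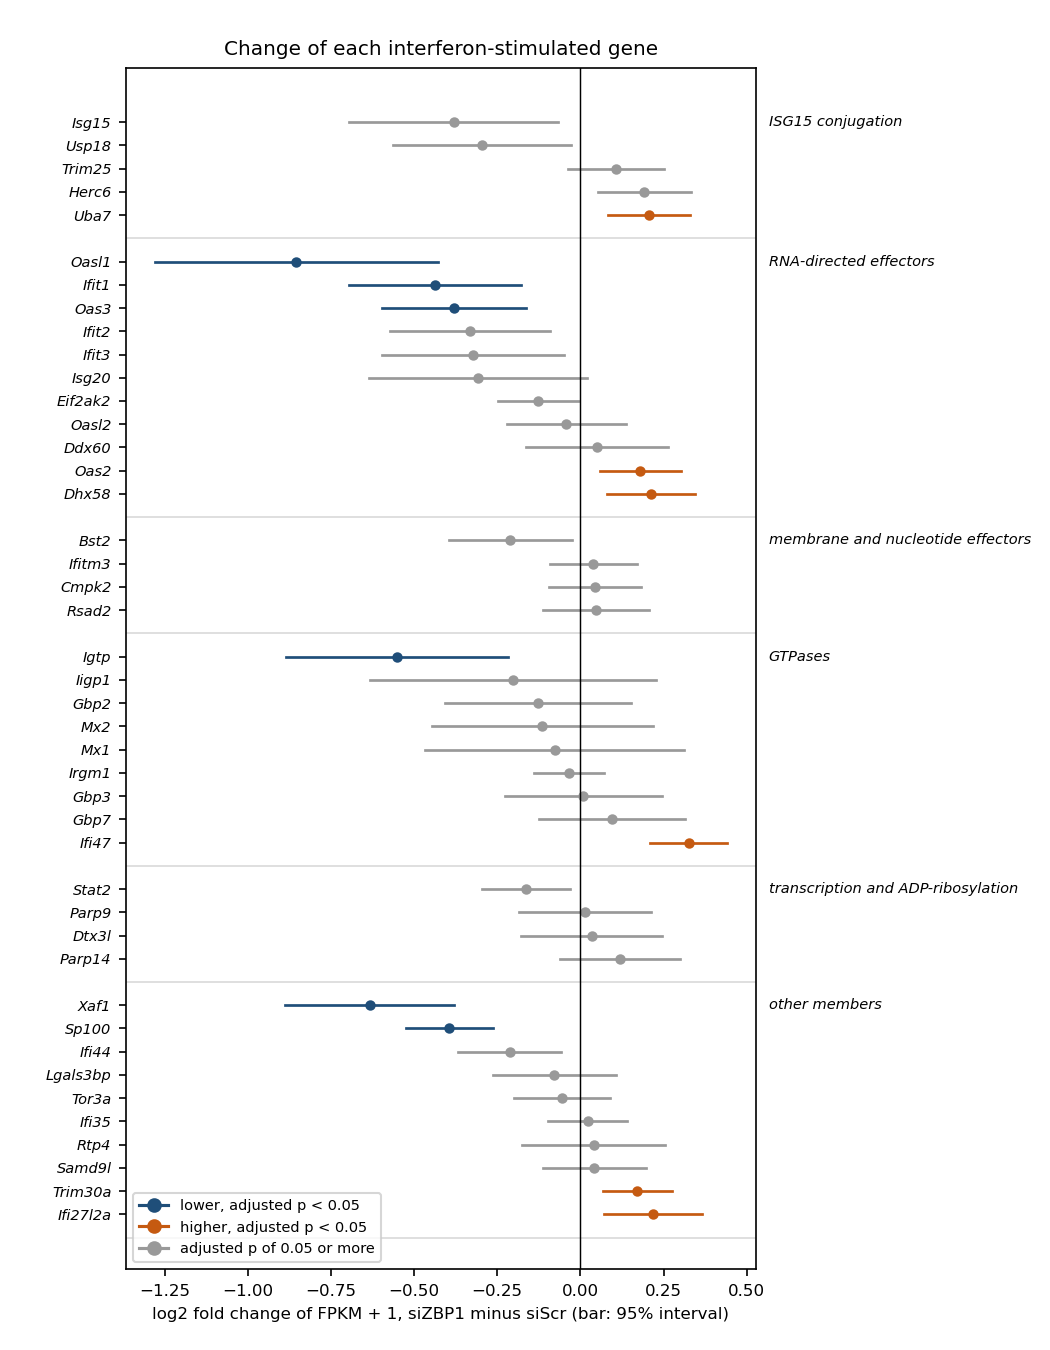
Log2 fold change of FPKM + 1 (siZBP1 minus siScr) of each member with its 95% interval from limma, grouped by role. Blue marks the 6 genes that fell, orange the 6 that rose, and grey the 31 that did not pass an adjusted p of 0.05.

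Among the 11 RNA-directed effectors, which recognise or degrade foreign RNA or halt its translation, 3 fell, 2 rose and 6 did not pass. These falls and rises were 27.3% and 18.2% of the role, against 14.8% and 13.5% of all tested genes. The median log2 fold change of the role was -0.31. Oasl1, an oligoadenylate synthetase-like protein without synthetase activity that is known to hold back translation of the interferon regulator Irf7, was at 9.93 and 7.07 FPKM in the siScr replicates and at 4.15 and 4.24 FPKM in the siZBP1 replicates. Its siZBP1 values were close together and under both control values, and its mean was 2.03-fold lower (log2 fold change -0.85, standard error 0.16, limma adjusted p = 0.0234), the largest change in size among the 43 genes. Without siZBP1 replicates 1 or 2, taken out one at a time, its adjusted p reached at most 0.147.

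Ifit1, which binds viral mRNA caps that lack methylation of the first ribose, was at 87.8 and 72.4 FPKM in siScr cells and at 58.5 and 58.8 FPKM in siZBP1 cells. The groups were separate, and the mean fell 1.37-fold (log2 fold change -0.44, standard error 0.098, limma adjusted p = 0.0356). Ifit1 passed in 5 of the 7 other settings with all samples. Its relatives Ifit2 and Ifit3, which lie beside it on chromosome 19, had log2 fold changes of -0.33 and -0.32 and missed the threshold (limma adjusted p = 0.0562 and 0.0830). Ifit3 shares 51.2% of the 50-base stretches of its transcript with Ifit3b, so its level is uncertain by what was assigned to that copy.

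The oligoadenylate synthetase family members went different ways. Oas3, whose product makes the oligoadenylates that activate RNase L, was at 67.2 and 57.6 FPKM in siScr cells and at 47.2 and 48.0 FPKM in siZBP1 cells, which is 1.31-fold lower (log2 fold change -0.38, standard error 0.082, limma adjusted p = 0.0321). Oas2, the neighbouring gene on chromosome 5, was at 30.3 and 30.8 FPKM in siScr cells and at 35.5 and 34.1 FPKM in siZBP1 cells, which is 1.14-fold higher (log2 fold change 0.18, standard error 0.046, limma adjusted p = 0.0489). The groups were separate for both genes, in opposite directions. Oasl2, next to Oasl1 on chromosome 5 and the most abundant of these effectors, was at 117 and 104 FPKM in siScr cells and at 105 and 109.6 FPKM in siZBP1 cells. Its groups overlapped (log2 fold change -0.04, 95% interval -0.22 to 0.14). Oas2 passed in 3 of the 7 other settings with all samples (limma adjusted p between 0.0307 and 0.0923), and Oas3 in 6 of them.

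Dhx58, which encodes LGP2, a helicase that tunes sensing of viral RNA by MDA5 and RIG-I, was at 28.9 and 27.6 FPKM in siScr cells and at 33.5 and 32.3 FPKM in siZBP1 cells. It rose 1.16-fold (log2 fold change 0.21, standard error 0.050, limma adjusted p = 0.0395), with separate groups, and passed in 6 of the 7 other settings with all samples. An antisense gene overlaps 141 of its exonic bases (4.31%) and the library kit does not mark strand, so reads from that stretch cannot be assigned to either gene. The remaining members of this role were Eif2ak2, the kinase PKR that stops translation on sensing double-stranded RNA, Ddx60, a helicase, and Isg20, an exonuclease, and their log2 fold changes of -0.13, 0.05 and -0.31 did not pass.

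ISG15 conjugation attaches the ubiquitin-like protein ISG15 to other proteins. Of its 5 members 0 fell, 1 rose and 4 did not pass, with a median log2 fold change of 0.11. Isg15 itself was at 281 and 222 FPKM in siScr cells and at 187 and 197 FPKM in siZBP1 cells. Both siZBP1 values lay below both control values, but the control values differed by 1.26-fold and the change did not pass (log2 fold change -0.38, standard error 0.12, limma adjusted p = 0.0779). Its log2 fold change became -0.21 when siScr replicate 1 was left out and -0.55 when siScr replicate 2 was, and in the latter fit it passed (limma adjusted p = 0.0170, the lowest of a range up to 0.3003 over the samples left out). Uba7, the activating enzyme of the pathway, was at 27.1 and 26.8 FPKM in siScr cells and at 30.7 and 31.9 FPKM in siZBP1 cells. It rose 1.16-fold (log2 fold change 0.21, standard error 0.046, limma adjusted p = 0.0361) and passed in 5 of the 7 other settings with all samples. Herc6, the mouse ligase, and Trim25, a ligase that can also attach ISG15, had log2 fold changes of 0.19 and 0.11. Usp18, which removes ISG15 and also blocks signalling at IFNAR2, had one of -0.30. None of these 3 passed, and in all 5 members the groups were separate, below for Isg15 and Usp18 (against 33.7% of all tested genes) and above for Uba7, Herc6 and Trim25 (against 34.7%). Herc6 shares 23.8% of the 50-base stretches of its transcript with the overlapping gene Gm45193, so its level is uncertain.

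Membrane and nucleotide effectors stop virus entry, release or replication. By limma 0 of the 4 passed in either direction, against 14.8% lower and 13.5% higher among all tested genes. An unadjusted p under 0.05 was found for 1 of the 4, against 42% of all tested genes. Ifitm3, which blocks fusion of viruses with endosomal membranes, was the most abundant of all 43 genes, with 1204 and 1149 FPKM in siScr cells and 1223 and 1194 FPKM in siZBP1 cells. Its groups overlapped, and the 95% interval of its log2 fold change ran from -0.09 to 0.17. Bst2, the tetherin that holds budding virions at the cell surface, was at 406 and 361 FPKM in siScr cells and at 337 and 324 FPKM in siZBP1 cells. Both siZBP1 values were lower, by 1.16-fold on the mean, without passing the test (log2 fold change -0.21, limma adjusted p = 0.0882). Rsad2, the radical enzyme viperin, and its neighbour Cmpk2, which supplies it with nucleotides, had log2 fold changes of 0.05 and 0.04.

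Interferon-inducible GTPases include the Mx proteins, the guanylate-binding proteins and the immunity-related GTPases. Of 9 members 1 fell and 1 rose (11.1% each, against 14.8% and 13.5% of all tested genes). Both belong to the immunity-related GTPases, which act on vacuoles that hold microbes. Igtp was at 28.9 and 22.8 FPKM in siScr cells and at 16.4 and 18.1 FPKM in siZBP1 cells, 1.5-fold lower (log2 fold change -0.55, standard error 0.13, limma adjusted p = 0.0371). This fall passed in 5 of the 7 other settings with all samples. Ifi47, of the same family, was at 44.9 and 46.6 FPKM in siScr cells and at 56.7 and 58.4 FPKM in siZBP1 cells, 1.26-fold higher (log2 fold change 0.33, standard error 0.044, limma adjusted p = 0.0110). It was the largest rise among the 43 genes. Irgm1, a regulatory member of that family, was at 117 and 114 FPKM in siScr cells and at 115 and 111 FPKM in siZBP1 cells. Its groups overlapped and the 95% interval of its log2 fold change ran from -0.14 to 0.07, so that 3 relatives on chromosome 11 fell, rose and did not pass. Igtp shares 12.3% of the 50-base stretches of its transcript with Irgm2, with which it overlaps, and Ifi47 overlaps Olfr56 over 111 exonic bases. The other 6 GTPases, Mx1, Mx2, Gbp2, Gbp3, Gbp7 and Iigp1, had log2 fold changes between -0.20 and 0.10, and none passed. C57BL/6 mice carry defective Mx alleles, and transcripts of both Mx genes were at 5.37 to 11.3 FPKM over the 4 samples.

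Of the 4 genes of transcription and ADP-ribosylation 0 passed by limma in either direction, against 14.8% lower and 13.5% higher among all tested genes. An unadjusted p under 0.05 was found for 1 of the 4, against 42% of all tested genes. Stat2, the subunit that gives the type I interferon complex its activation domain, showed the largest change in this role, with 59.0 and 55.1 FPKM in siScr cells and 51.1 and 50.6 FPKM in siZBP1 cells. Both siZBP1 values were lower (1.12-fold on the mean, log2 fold change -0.16, limma adjusted p = 0.0745). Parp9 and Dtx3l, which form a complex of an ADP-ribosyltransferase and a ubiquitin ligase, and Parp14, a further ADP-ribosyltransferase, are neighbours on chromosome 16. Their log2 fold changes were 0.01, 0.03 and 0.12, and the groups of each overlapped. Parp9 and Dtx3l overlap over 458 exonic bases on opposite strands, where reads cannot be assigned to either.

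Of the remaining 10 members 2 fell, 2 rose and 6 did not pass. Xaf1, which binds and antagonises the apoptosis inhibitor XIAP, was at 31.8 and 26.5 FPKM in siScr cells and at 18.5 and 18.2 FPKM in siZBP1 cells. It fell 1.59-fold (log2 fold change -0.63, standard error 0.096, limma adjusted p = 0.0144), and its siZBP1 values were separate from both controls. Sp100, a component of nuclear bodies formed with PML, was at 58.5 and 54.95 FPKM in siScr cells and at 42.4 and 43.4 FPKM in siZBP1 cells. It fell 1.32-fold with the lowest adjusted p of the 43 genes (log2 fold change -0.39, standard error 0.050, limma adjusted p = 0.00984), and its control values differed by 1.07-fold only. Sp100 shares 10.2% of the 50-base stretches of its transcript with other genes, most of them with Gm7582.

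Ifi27l2a, a small hydrophobic interferon-induced protein, was at 299.6 and 282 FPKM in siScr cells and at 327 and 349.6 FPKM in siZBP1 cells. It rose 1.16-fold (log2 fold change 0.22, standard error 0.056, limma adjusted p = 0.0478) and passed in 4 of the 7 other settings with all samples, in which the adjusted p lay between 0.0128 and 0.0945. Trim30a, a ligase of the TRIM family known to restrain NF-κB signalling, was at 70.9 and 73.0 FPKM in siScr cells and at 80.5 and 81.7 FPKM in siZBP1 cells. It rose 1.13-fold (log2 fold change 0.17, standard error 0.040, limma adjusted p = 0.0382), with separate groups, and passed in 5 of the 7 other settings with all samples.

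Lgals3bp, a secreted glycoprotein that binds galectin-3, was at 778 and 688 FPKM in siScr cells and at 695 and 691 FPKM in siZBP1 cells. Only siScr replicate 1 stood off, and its log2 fold change of -0.08 had a 95% interval from -0.26 to 0.11. Rtp4, a chaperone of receptors that also acts against some RNA viruses, was at 88.2 and 75.5 FPKM in siScr cells and at 84.5 and 83.3 FPKM in siZBP1 cells. Its groups overlapped as well, with a log2 fold change of 0.04 and a 95% interval from -0.18 to 0.26. Rtp4 shares 13.6% of the 50-base stretches of its transcript with the overlapping gene Gm45338, so its level is uncertain. The other 4, Ifi44, Tor3a, Ifi35 and Samd9l, had log2 fold changes between -0.21 and 0.04, and Ifi44 came nearest to the threshold (limma adjusted p = 0.0560).

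Members with an ISRE match in the promoter lay on both sides of 0. Of the 16 members with a match, 3 fell and 1 rose, against 14.8% and 13.5% of all tested genes. Their median log2 fold change was -0.13, with values from -0.55 (Igtp) to 0.17 (Trim30a). Of the 16 whose promoter held no match, 3 fell and 2 rose, and the median was -0.01, with values from -0.85 (Oasl1) to 0.33 (Ifi47). Isg15 held 3 overlapping matches and Ifit1 held 2 separate ones, as printed above, while Oasl1, Xaf1 and Sp100 held none within the window. Oas2, Dhx58 and Ifi27l2a, which rose, were among the members without a promoter sequence, whereas every member that fell had one. The balance of falls and rises in these counts is therefore not that of all members. These are counts without a test, and a match of letters is no proof of a bound site.

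**Figure D4:**
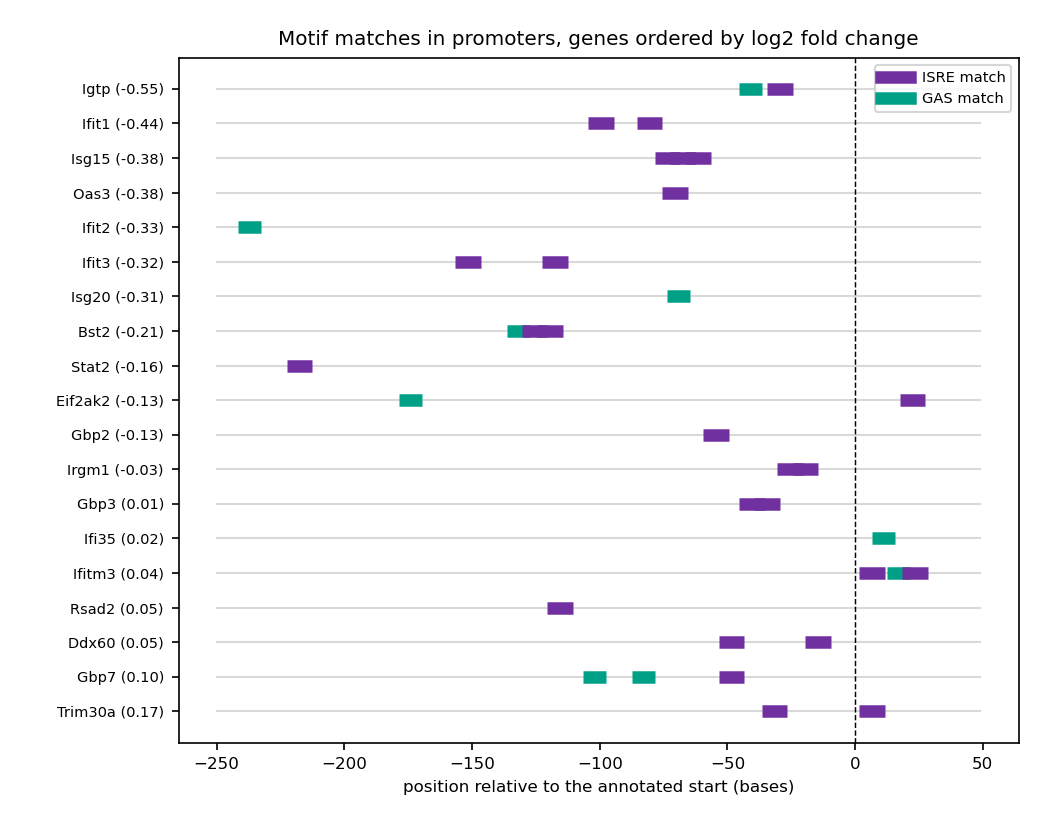
Positions of ISRE (purple) and GAS (green) matches in bases relative to the annotated start (dashed line) for the members with at least 1 match, ordered by log2 fold change (in brackets, siZBP1 minus siScr). Matches are found among members that fell (Igtp, -0.55) and that rose (Trim30a, 0.17).

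The genes that carry the interferon signal itself were examined next, from a list of 25. Of these, 12 passed the minimum level. By limma 0 of the 12 fell (against 14.8% of all tested genes), 2 rose (16.7%, against 13.5%) and 10 did not pass. An unadjusted p under 0.05 was found for 3 of the 12, against 42% of all tested genes. The median of the 12 was -0.01 on the log2 scale. Interferon genes were at or near 0 in both groups, with 10 of them listed at 0 in all samples, which include each of the 6 listed interferon alpha genes and interferon gamma. Ifnb1, the gene of interferon beta, was at 0.334 and 0 FPKM in siScr cells and at 0.152 and 0.0948 FPKM in siZBP1 cells. Ifnk was at 0.245 FPKM in siScr replicate 2 and listed at 0 in the others. Receptor transcripts were present. Ifnar1 was at 21.6 and 20.6 FPKM in siScr cells and at 24.6 and 24.3 FPKM in siZBP1 cells and rose 1.16-fold (log2 fold change 0.20, limma adjusted p = 0.0453). Ifngr1 was at 51.3 and 49.8 FPKM in siScr cells and at 62.8 and 58.0 FPKM in siZBP1 cells and rose 1.19-fold (log2 fold change 0.25, limma adjusted p = 0.0339). The other tested subunits, Ifnar2, Ifngr2 and Il10rb, had log2 fold changes of 0.15, -0.03 and -0.10 that did not pass. The rises of Ifnar1 and Ifngr1 no longer passed when any single sample was left out.

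Downstream of the receptors, Irf9, the DNA-binding partner of STAT2, did not pass. It was at 39.3 and 37.1 FPKM in siScr cells and at 35.3 and 38.0 FPKM in siZBP1 cells, with a log2 fold change of -0.06 and a 95% interval from -0.21 to 0.10. Jak2, a kinase of the interferon gamma receptor, had the largest change of the list and did not pass (log2 fold change -0.49, limma adjusted p = 0.0539).

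**Figure D5:**
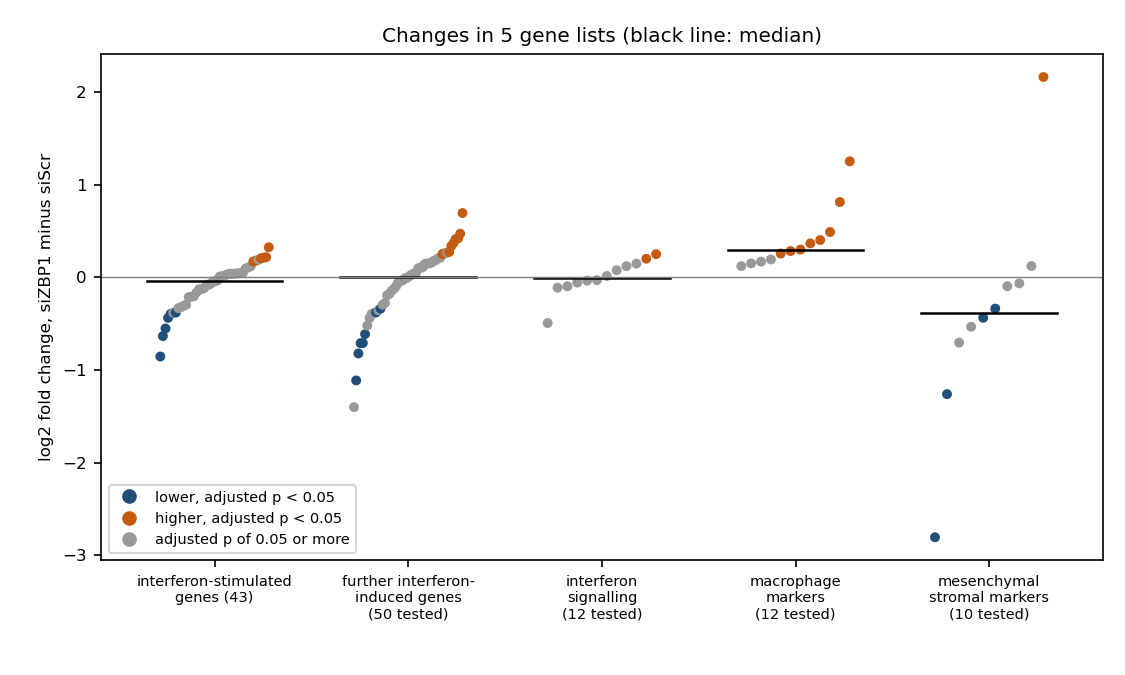
Log2 fold change (siZBP1 minus siScr) of each tested gene in 5 lists, with the median as a black line and genes past the adjusted p of 0.05 in blue (lower) or orange (higher). Interferon-stimulated genes lie on both sides of 0 (median -0.04), while the 12 macrophage markers are all above it (median 0.29).

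A further 55 interferon-induced genes, on a list with no gene in common with the 43, were read from the same fit. Of the 50 that passed the minimum level, 7 fell (14%), 9 rose (18.0%) and 34 did not pass, beside the background of 14.8% and 13.5% given above, and the median log2 fold change was 0.004. Among those that fell, Ms4a4c, a membrane protein of the MS4A family, changed most, from 42.4 and 26.0 FPKM in siScr cells to 13.8 and 15.97 FPKM in siZBP1 cells (log2 fold change -1.11, limma adjusted p = 0.0320). Phf11d, a PHD finger protein, fell from 20.2 and 16.7 to 10.3 and 9.62 FPKM (log2 fold change -0.82, limma adjusted p = 0.00999). The guanylate-binding protein gene Gbp6 fell from 3.73 and 3.20 to 1.64 and 1.81 FPKM (log2 fold change -0.71, limma adjusted p = 0.0169).

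In the other direction, Ifitm2 rose from 299.5 and 287 to 481 and 470.0 FPKM (log2 fold change 0.69, limma adjusted p = 0.00322), although its relative Ifitm3 did not pass. Gbp5, which takes part in inflammasome activation, rose from 2.65 and 2.59 to 4.21 and 3.84 FPKM (log2 fold change 0.47, limma adjusted p = 0.0272). Xdh, the gene of xanthine dehydrogenase, rose from 51.1 and 42.5 to 63.9 and 61.6 FPKM (log2 fold change 0.42, limma adjusted p = 0.0366). The guanylate-binding proteins thus held genes that fell (Gbp6), rose (Gbp5) and did not pass (Gbp2, Gbp3, Gbp7 and Gbp9). Gbp5 and Gbp6 were at low levels, between 1.64 and 4.21 FPKM. In this list, 3 genes passed as lower and 6 as higher without siScr replicate 1, and 13 as lower and 7 as higher without siScr replicate 2, beside the shares of all genes given above for these fits. The calls of this list did not hold without siZBP1 replicate 1 or without siZBP1 replicate 2.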

How the data were processed

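RNA-seq of 2 siScr and 2 siZBP1 samples was used, with groups and replicate numbers from the labels. The deposited values are FPKM per gene and sample. The authors prepared libraries with the TruSeq RNA kit and mapped reads to mm10 with Tophat, and the methods name HTSeq for the FPKM whereas the submitters' processing notes name TopHat and Cufflinks. The gene annotation, any filter and the numbers of reads are not given in the sources used here, so counting error is unknown. Of 24346 rows, 6558 were 0 in all samples and 27 carried date-like names. The deposited group means and fold changes were not used.

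A linear model was fitted with limma 3.58.1 in R 4.3.3, with a variance trend, to log2(FPKM + 1) of the 11959 genes with a mean of at least 1 FPKM, siZBP1 minus siScr, two-sided, with Benjamini-Hochberg adjustment over all of them at 0.05. Fold changes on this scale understate changes of low genes. Fits were first tested on simulated data. Values in every sample are given for each member past the threshold, for the 8 members with the highest mean and for the largest change in each role; of the signalling list for Irf9 and genes that passed (1 further gene of the rule is not reported here); and of the further interferon-induced genes for the 3 largest falls and rises. Members and lists were chosen with earlier results of these data known, and no test was run over a list. Genes named outside this rule were picked after their values were seen.

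Alternatives were a pseudocount of 0.1, no filter, a minimum mean of 5 FPKM, no variance trend, quantile normalization, scaling to a common median, a replicate block, and leaving out each sample. Positions and overlaps came from GENCODE M21 on GRCm38, promoters from RefSeq on GRCm38.p6. Transcripts were compared in stretches of 50 bases. Python 3.11.15 was used with pandas 2.3.3, numpy 2.4.6 and matplotlib 3.10.9.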

Additional observations from a re-analysis of the deposited data

How the results depend on the processing

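With all samples kept, the number of interferon-stimulated genes that passed stayed within 1.5 times of 6 lower and 6 higher except without a variance trend (3 and 1) and with a replicate block (10 and 2), and without a filter on low values it was 4 and 4. Of the 12 members that passed, 11 did so with a pseudocount of 0.1, 8 without a filter, 12 with a minimum mean of 5 FPKM, 4 without a variance trend, 12 with quantile normalization and 12 with median scaling, and no such member changed sign. When single samples were left out, between 0 and 14 members passed as lower and between 0 and 1 as higher, and the median log2 fold change of the 43 lay between -0.11 and 0.04. Over all genes, between 48 and 1467 passed as lower and between 22 and 1248 as higher, and of the further interferon-induced genes between 0 and 13 and between 0 and 7. Between 0 and 8 macrophage markers passed as higher. For the signalling list, 1 gene was lower with a pseudocount of 0.1 and with a minimum mean of 5 FPKM, and 1 was higher without a filter and 0 without a variance trend. With samples left out, that list held between 0 and 1 lower genes and 0 higher ones. A group left with 1 sample was assumed to vary like the other. The cause of these shifts was not tested.

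The sources used here do not say whether samples with the same replicate number belong together. The difference between replicate 1 and replicate 2 was not shared between the groups (correlation over 11959 genes -0.063). That single correlation over all genes cannot decide whether the samples were paired. With the replicate block, 10 members were lower and 2 higher, 8 of the 12 remained called and 4 were newly called, and 1 gene of the signalling list was lower and 1 higher. Over all genes, 1654 were lower and 1465 higher with the block, against 1766 and 1618 without it.

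Members and signalling genes that did not pass also changed sign. Lgals3bp reached 0.046 on the log2 scale with quantile normalization, and Ifngr2 0.0035 with median scaling. With single samples left out, log2 fold changes ran for Oasl2 from -0.13 to 0.0403, for Ddx60 from -0.031 to 0.13, for Rsad2 from -0.015 to 0.11, for Mx1 from -0.25 to 0.091, for Gbp2 from -0.26 to 0.0047, for Gbp3 from -0.11 to 0.12, for Iigp1 from -0.44 to 0.034, for Parp9 from -0.078 to 0.11. They ran for Dtx3l from -0.066 to 0.13, for Ifi35 from -0.0103 to 0.053, for Samd9l from -0.022 to 0.11, for Lgals3bp from -0.17 to 0.0094 and for Rtp4 from -0.072 to 0.15.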
